A study of Homo sapiens with 3 samples.

Results

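The genes described here were chosen by symbol, as protein-coding genes named COL followed by a number, A and a number, or with names that begin with ITGA, ITGB or a laminin chain prefix. The rule found 4 of the 11916 named protein-coding genes: COL26A1, ITGB1BP1, ITGB1BP2 and ITGB3BP. Only COL26A1 encodes a collagen chain. The other 3 carry the name of an integrin β subunit because their proteins bind to its tail, and none of them is an integrin subunit. The RefSeq gene table lists 82 protein-coding collagen chains, integrin subunits and laminin chains, namely 44 collagen chains, 18 integrin α subunits, 8 integrin β subunits and 12 laminin chains. Of these 1 had a named probe set, and the others were not analysed here. The values below therefore do not describe collagens, integrins and laminins as families, and the genes are called the collagen XXVI gene and the integrin-tail-binding genes.

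The cells were MDA-MB-231, an established human cell line of triple-negative breast cancer with an invasive, mesenchymal-like character. The cultures received 10 µM Mt-CFX, 10 µM CFX or, as the control, 1% DMSO, and RNA was taken after 72 h. Ciprofloxacin, the fluoroquinolone antibiotic in the title of the series, is used against bacteria, and for Mt-CFX the labels give only a code name. Each group was 1 array (n = 1), so there is no replicate error, no p-value was computed, and no difference was checked against the spread between cultures. A DMSO content is labelled for the control alone, so an effect of the solvent cannot be told apart from an effect of either compound. Of the markers with a named probe set, those that reached the median of all probe sets on at least 1 array were 7 of 9 on the mesenchymal or basal list, which also holds the luminal keratins KRT8 and KRT18, and 7 of 8 on the luminal epithelial list. VIM was at 9.17 log2 on each array, while the basal keratins KRT5 and KRT14 lay below that level. ESR1, on the luminal list, reached it on the CFX array alone, at 3.92 log2 against 3.81 with Mt-CFX and 3.81 in the control. Of all named protein-coding genes 8868 of 11916 reached it, so such counts alone do not name the cell type. Markers of other cell types that reached this median were 0 of 2 for fibroblasts, 1 of 4 for endothelium (CLDN5) and 1 of 3 for leukocytes (CD68). The part of other cell types in the values was not tested.

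Collagens are triple-helical proteins that form the fibres and sheets of the extracellular matrix, and laminins are the trimeric glycoproteins of basement membranes. Integrins are αβ heterodimers that hold cells to both. The short cytoplasmic tail of the β subunit recruits talin and kindlin, which switch the receptor on and couple it to actin, and further proteins that compete with them. COL26A1 encodes collagen XXVI, described in mouse from testis and ovary. ITGB1BP1 encodes ICAP-1, which binds the β1 tail and holds the receptor inactive. ITGB1BP2 encodes melusin, a β1-tail binder of striated muscle. ITGB3BP encodes a protein found through the β3 tail that is also CENP-R, a subunit of the inner kinetochore.

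Above the background level of 3.89 log2, the median of all probe sets, lay 3 of the 4 genes, and between arrays 1 of them differed. Of all named protein-coding genes 8868 of 11916 lay above this level, and 45.3% of these 8868 were equal on all 3 arrays. Each of the 4 genes had 1 probe set. COL26A1 stood at 4.69 log2 with Mt-CFX, 4.69 with CFX and 4.69 in the control. The deposited values of this collagen gene were identical to the last digit on the 3 arrays. ITGB3BP stood at 5.48 log2 with Mt-CFX, 5.48 with CFX and 5.48 in the control, again with no difference in any digit. ITGB1BP1 was at 5.26 log2 with Mt-CFX, 5.30 with CFX and 5.26 in the control. Its CFX array was the high one, and its Mt-CFX and control arrays were equal. ITGB1BP2 stood at 2.77 log2 with Mt-CFX, 2.77 with CFX and 2.77 in the control, so the melusin gene counted as background on every array. Relative to the background level, COL26A1 stood 0.80 log2 above it and ITGB1BP2 at −1.12 log2. Levels of different probe sets depend on their probes, so these distances do not order the genes by amount of transcript.

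**Figure D1:**
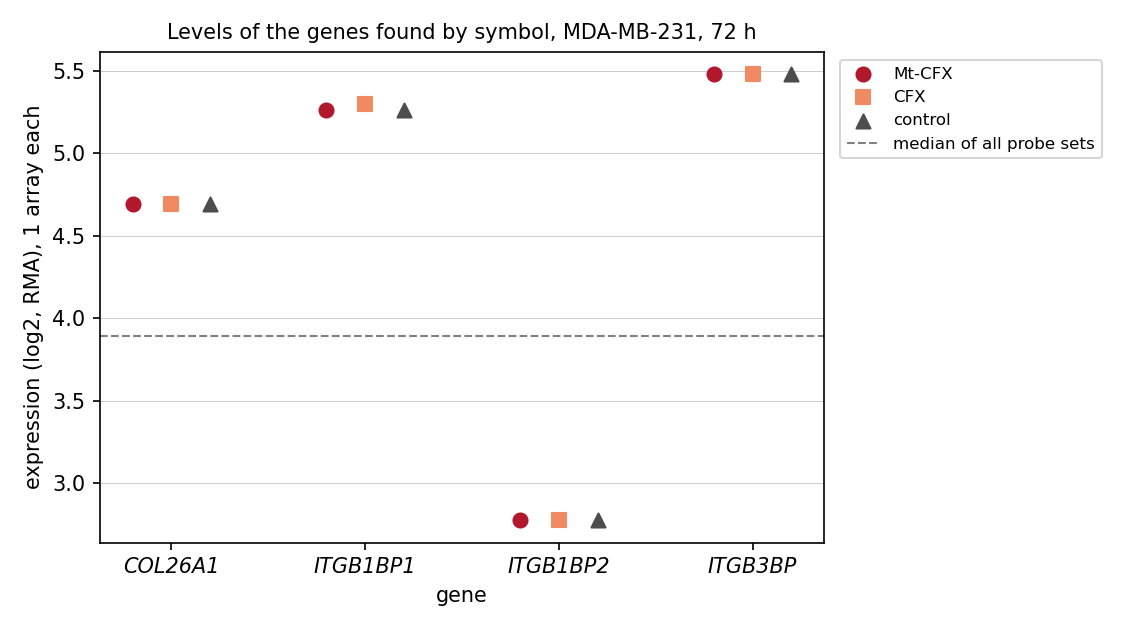
Expression in log2 units (vertical axis) of COL26A1, ITGB1BP1, ITGB1BP2 and ITGB3BP (horizontal axis), with 1 symbol for each array: circles for Mt-CFX, squares for CFX and triangles for the control. The dashed line is the median of all probe sets, 3.89 log2, and the axis does not start at 0. ITGB1BP2 at 2.77 is the gene below the line, and the CFX square of ITGB1BP1 at 5.30 is the symbol that stands off its row.

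The start regions of these genes are shown because the gene at background differs from the others in the letters there. RefSeq promoter windows of GRCh38.p14, from 250 bases before to 50 bases after a transcript start, were found for 4 of the 4 genes. The windows are printed 5′ to 3′ on the gene's strand, and capitals mark each CG dinucleotide. COL26A1 is read from chr7:101362625-101362924 on the plus strand, ITGB1BP1 from chr2:9423479-9423778 on the minus strand, and ITGB1BP2 from chrX:71301500-71301799 on the plus strand.
COL26A1: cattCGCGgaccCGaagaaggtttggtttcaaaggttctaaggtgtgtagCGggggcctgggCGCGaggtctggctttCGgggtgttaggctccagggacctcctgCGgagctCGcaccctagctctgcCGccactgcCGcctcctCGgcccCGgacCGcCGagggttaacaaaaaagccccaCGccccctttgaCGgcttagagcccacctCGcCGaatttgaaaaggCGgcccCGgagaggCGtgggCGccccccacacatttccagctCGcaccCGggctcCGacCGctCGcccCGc
ITGB1BP1: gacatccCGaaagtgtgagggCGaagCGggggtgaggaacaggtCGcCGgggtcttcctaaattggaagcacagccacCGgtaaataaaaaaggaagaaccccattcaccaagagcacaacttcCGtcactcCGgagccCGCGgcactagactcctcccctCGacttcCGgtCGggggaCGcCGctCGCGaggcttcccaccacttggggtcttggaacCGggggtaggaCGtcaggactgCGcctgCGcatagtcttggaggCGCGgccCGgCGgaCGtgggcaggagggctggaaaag
ITGB1BP2: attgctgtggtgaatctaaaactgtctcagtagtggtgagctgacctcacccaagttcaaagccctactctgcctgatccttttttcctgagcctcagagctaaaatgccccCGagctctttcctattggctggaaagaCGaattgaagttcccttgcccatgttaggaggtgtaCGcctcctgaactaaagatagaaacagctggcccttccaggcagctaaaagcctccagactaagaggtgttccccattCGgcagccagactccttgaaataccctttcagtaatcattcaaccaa

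The motif searched was CG, which reads the same on both strands and cannot overlap itself, and 98.5% of the 13726 windows of named protein-coding genes held it at least once, with a median of 22 per window. The COL26A1 window held 29. The window of ITGB3BP held 26, and the overlapping windows of ITGB1BP1 held 26 and 24. The window of ITGB1BP2 held 4, and 15.4% of all windows held as few or fewer. For counts across genes, each of the 9707 genes with a window was classed by its first listed window alone. Of those with at least 24 CG dinucleotides, 4221 of 4836 reached the background level on 1 array or more (87.3%). Of those with at most 4, 433 of 1258 did (34.4%). Both cut-offs were taken from these genes: 4 is the count of ITGB1BP2 and 24 the lowest count of the others. Genes between the cut-offs are left out. Over all named protein-coding genes, with or without a window, 8868 of 11916 reached the background level. A link between the CG count and the level of ITGB1BP2 was not tested. These counts describe letters in a fixed window, and with 4 genes nothing is said of how any of them is controlled.

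Set against the control, Mt-CFX gave a log2 difference of 0.00 for COL26A1, ITGB1BP1 and ITGB3BP. At a 2-fold size 0 of these 3 genes differed, against 0.564% of the 8868 protein-coding genes above background. At a 1.5-fold size 0 differed, against 2.71% of all genes. Exactly equal values were common, since 52.9% of all genes were equal between the Mt-CFX and control arrays and 45.3% were equal on all 3. An equal summarised value does not show that the amount of transcript was the same, and no interval can be given for any of these differences.

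With CFX, ITGB1BP1 was higher than in the control by 0.04 log2, a 1.03-fold difference. COL26A1 and ITGB3BP had log2 differences of 0.00. Of all genes 30.1% differed by at least as much as ITGB1BP1 in this comparison, and 59.2% were equal. At 2-fold 0 of the 3 genes differed, against 0.0226% of all genes, and at 1.5-fold 0 differed, against 0.147%.

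Between the compounds, compared at the same dose and time, the log2 difference of ITGB1BP1 was −0.04 for Mt-CFX over CFX, with COL26A1 and ITGB3BP at 0.00. This is the CFX array of ITGB1BP1 seen from the other side, since its Mt-CFX and control values were equal. Of all genes 37.4% differed by at least as much, and 54.7% were equal. At 2-fold 0 of the 3 genes differed, against 0.383% of all genes, and at 1.5-fold 0 differed, against 2.15%. With 1 array per compound the genes cannot be called alike in their response.

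Proteins that make, bind or signal from collagens, laminins and integrins were described through 5 lists, which held 138 symbols. Among these symbols HIC5 and CTAGE5 are other names of the listed TGFB1I1 and MIA2, so fewer genes than symbols were listed. Of the 138 symbols 101 had a named probe set and 84 lay above background. With Mt-CFX 36 of the 84 were lower than in the control, 7 were higher and 41 were equal, against 23.2% lower, 23.9% higher and 52.9% equal over all genes. At 1.5-fold 8 were lower and 1 was higher, against 1.25% and 1.45% of all genes. With CFX 31 were lower, 12 were higher and 41 were equal, against 15.0% lower and 25.8% higher over all genes, and 0 reached 1.5-fold. The median of the 84 genes was 0.00 log2 in both comparisons, as it was over all genes. The comparisons share the control array, so they are not independent of each other. The lists were chosen with earlier results of these data known, so their shares beside those of all genes are a description only.

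On the list of collagen biosynthesis and cross-linking 14 of the 17 genes with a named probe set lay above background. Not all of them encode enzymes, since CRTAP and PCOLCE are on the list. Of the 14 genes 7 were lower with Mt-CFX than in the control, 0 were higher and 7 were equal. Their median was −0.03 log2. Over all genes 23.2% were lower, 23.9% higher and 52.9% equal. COLGALT1, which adds galactose to hydroxylysine in collagen chains, was at 8.06 log2 with Mt-CFX, 8.31 with CFX and 8.68 in the control. Its value was lowest with Mt-CFX, with log2 differences from the control of −0.62 with Mt-CFX and −0.37 with CFX. P3H2, a prolyl 3-hydroxylase, was at 6.15 log2 with Mt-CFX, 6.65 with CFX and 6.76 in the control, and differed from the control by −0.61 with Mt-CFX and by −0.12 with CFX. The cross-linking enzyme gene LOXL2 had log2 differences of −0.42 with Mt-CFX and 0.00 with CFX. LOXL4, of the same enzyme family, had log2 differences of −0.41 with Mt-CFX and −0.31 with CFX, but its Mt-CFX and CFX values lay below the background level, so these sizes are uncertain. LOX, P3H1 and BMP1, which encodes a procollagen C-proteinase, were equal on the 3 arrays.

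The list closest to the integrin-tail-binding genes was that of adhesion adaptors and kinases, with 30 genes above background. The Mt-CFX value was below the control in 8 (26.7%), above it in 4 (13.3%) and equal in 18 (60%), with a median of 0.00 log2. Over all genes these shares were 23.2%, 23.9% and 52.9%, so the share of lower genes was near that of all genes. Talin and the kindlins are activators whose binding to the β tail ICAP-1 can contest. TLN1 (talin) and FERMT1 (kindlin-1) were equal on the 3 arrays, and FERMT2 (kindlin-2) had log2 differences of 0.09 with Mt-CFX and 0.00 with CFX. TES, which encodes the focal adhesion protein testin, was at 8.09 log2 with Mt-CFX, 7.27 with CFX and 7.25 in the control. Only its Mt-CFX array stood apart, by 0.83 log2 over the control and 0.82 over CFX. TNS4, a tensin that binds integrin β tails, was at 5.39 log2 with Mt-CFX, 6.16 with CFX and 6.13 in the control, a log2 difference of −0.74 with Mt-CFX and 0.03 with CFX. VCL, the gene for vinculin, had log2 differences of −0.54 with Mt-CFX and −0.09 with CFX, and the tensin gene TNS3 had −0.49 and −0.06 in the same comparisons. PTK2, the gene for focal adhesion kinase, was equal on the 3 arrays, as were SRC and BCAR1.

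Of 13 genes on the list of other receptors and co-receptors of collagen and laminin 7 were lower with Mt-CFX than in the control, 1 was higher and 5 were equal. Their median was −0.09 log2. Over all genes 23.2% were lower, 23.9% higher and 52.9% equal. The list also holds tetraspanins, membrane partner proteins that are not themselves such receptors. Of these CD9, CD81 and CD63 were lower, at −0.09, −0.14 and −0.17 log2, and CD151 was equal. The median is the value of CD9. SDC2, a cell surface heparan sulphate proteoglycan of the syndecan family, was at 6.57 log2 with Mt-CFX, 7.36 with CFX and 7.41 in the control. The log2 difference was −0.84 over the control and −0.79 over CFX. CD44, a receptor for hyaluronan, had −0.34 with Mt-CFX and 0.00 with CFX. The higher gene was DDR2, a receptor tyrosine kinase for fibrillar collagen, at 4.56 log2 with Mt-CFX, 4.36 with CFX and 4.08 in the control. DDR1 and BCAM, a laminin receptor gene, were equal on the 3 arrays.

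Of 15 genes on the list of other basement membrane components 8 were lower with Mt-CFX than in the control, 1 was higher and 6 were equal. Their median was −0.03 log2. Over all genes 23.2% were lower, 23.9% higher and 52.9% equal. The list also holds DST and PLEC, which encode cytoskeletal linkers inside the cell, at −0.48 and −0.26 log2 with Mt-CFX. The count and median are thus not of basement membrane components alone. PXDN encodes peroxidasin, which forms the sulfilimine cross-links of collagen IV. It was at 7.80 log2 with Mt-CFX, 8.69 with CFX and 8.77 in the control, so that the Mt-CFX level was 0.512 of the control level and the CFX level 0.948 of it. EFEMP1 (fibulin-3) had log2 differences of −0.63 with Mt-CFX and −0.13 with CFX. HSPG2, the gene for perlecan, lay just outside the 1.5-fold size at −0.57 with Mt-CFX, while P3H2 at −0.61 lay just inside it. Among 12 other integrin ligands the Mt-CFX value was below the control in 6, above it in 1 and equal in 5. The shares over all genes were 23.2%, 23.9% and 52.9% in that order. At least 2-fold lower was 1 of the ligands, THBS1 (thrombospondin 1), against 0.259% of all genes. THBS1 was at 8.38 log2 with Mt-CFX, 9.31 with CFX and 9.52 in the control. Its log2 differences from the control were −1.14 with Mt-CFX and −0.21 with CFX. At 1.5-fold 2 ligands were lower and 0 higher with Mt-CFX than in the control, against 1.25% and 1.45% of all genes. FN1, the fibronectin gene, had log2 differences of −0.72 with Mt-CFX and −0.26 with CFX. For Mt-CFX over CFX 1 ligand gene was lower by 1.5-fold or more, THBS1 at −0.93 log2, against 1.03% of all genes. Higher by 1.5-fold or more was 1, TNC, the tenascin C gene, against 1.13% of all genes, at 7.96 log2 with Mt-CFX, 7.31 with CFX and 7.66 in the control. The TNC values thus lay on either side of the control, at 0.30 log2 with Mt-CFX and −0.35 with CFX.

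**Figure D2:**
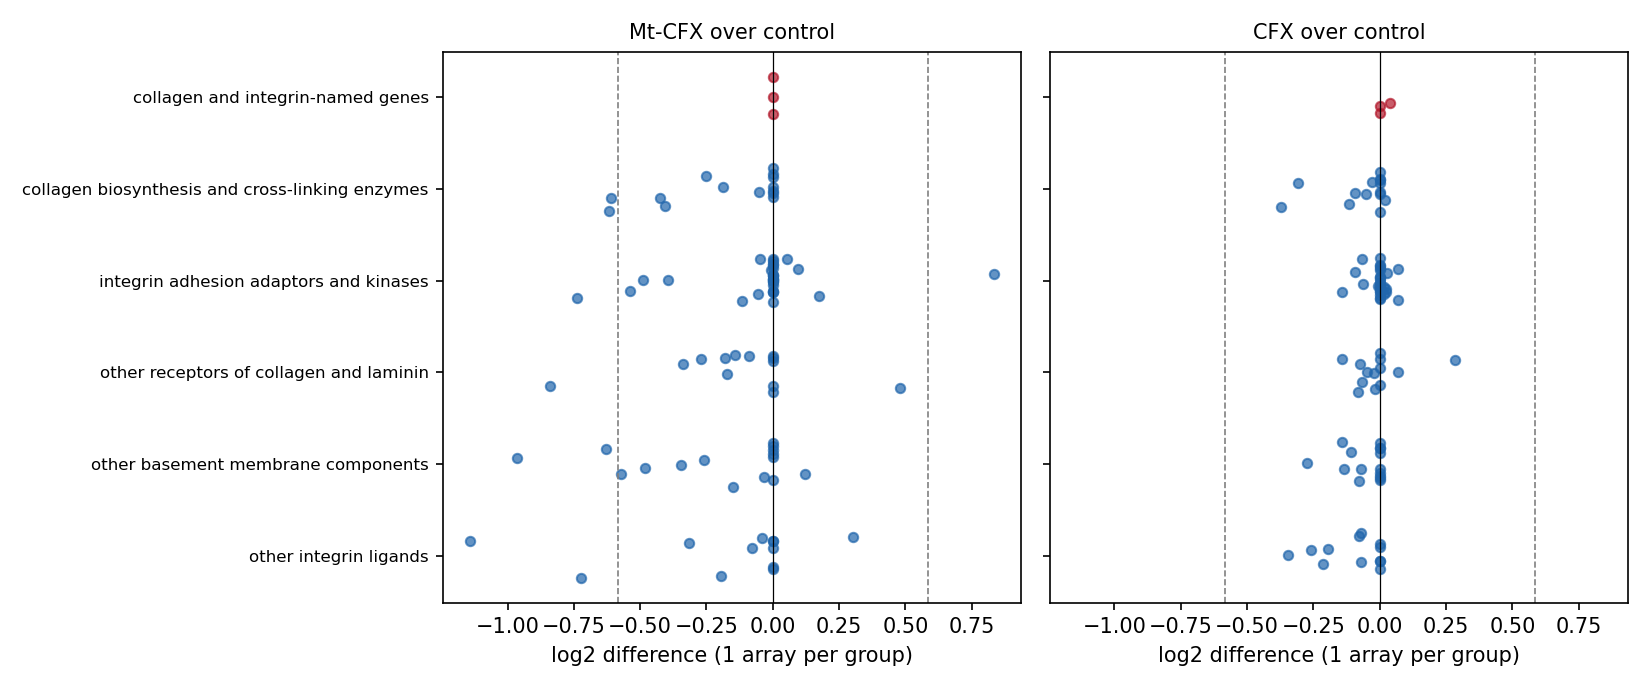
Log2 differences (horizontal axis) of Mt-CFX over control, left, and CFX over control, right, with 1 point for each gene above background, in rows for the 3 collagen- and integrin-named genes and for the 5 lists. Points are spread vertically within a row for visibility, the solid line marks 0 and the dashed lines mark 1.5-fold. The top row sits at 0 apart from ITGB1BP1 with CFX at 0.04, and the left panel holds the 9 points beyond the dashed lines, 8 of them lower.

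**Figure D3:**
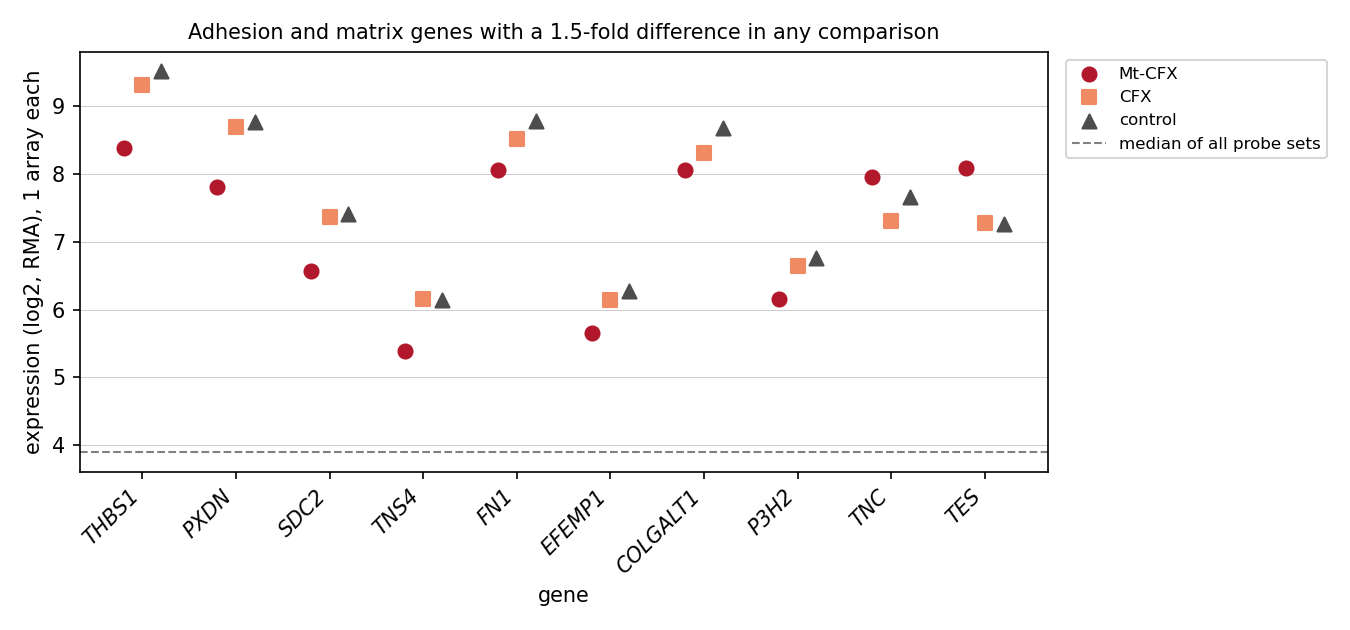
Expression in log2 units (vertical axis, not starting at 0) of the 10 list genes that differed by 1.5-fold in any comparison, ordered along the horizontal axis by the Mt-CFX difference from the control, with circles for Mt-CFX, squares for CFX and triangles for the control (1 array each). The CFX and control symbols lie close together for PXDN, SDC2, TNS4 and TES, and the Mt-CFX circle stands apart.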

How the data were processed

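Total RNA of 3 cultures was measured on 1 whole-transcript array each. The authors deposited log2 values for each probe set, and the submitters' processing notes name RMA and Affymetrix Expression Console. Versions, build and annotation release are not given in the sources used here. Names came from the platform annotation, which gave 1 symbol to 16098 of 53617 probe sets, and symbols and gene types were taken from RefSeq by gene ID. Where a gene had several probe sets, the one with the highest mean was used. Genes counted as above background when the highest array was at or over 3.89 log2, which is the median over all probe sets and arrays. Differences of log2 values were counted at 2-fold and 1.5-fold. No test was possible with 1 array per group, and the number of arrays limits the precision. The counting was tested on simulated data. The genes and lists were chosen with earlier results of these data known. Named list genes were taken from those with the largest differences, up to 4 per list and comparison. Not all of these were named, and AGRN, LIMS1 and FBN1 are among those left out. For CFX over control, AGRN at −0.27 log2 and LIMS1 at −0.14 had the largest differences of the basement membrane and adaptor lists. Also named were adaptors of the β tail and kinases, other enzymes and receptors with equal values, which were chosen after their values were seen. As alternatives, genes were kept without a floor, by a floor on the arrays' mean or by a floor at the 75th percentile. A gene's probe sets were averaged or used singly, and differences were re-centred by lowess with a span of 0.3. Protein sequences were not used here. Computation used Python 3.11.15, numpy 2.4.6, pandas 2.3.3, statsmodels 0.14.6 and matplotlib 3.10.9.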

Additional observations from a re-analysis of the deposited data

How the results depend on the processing

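COL26A1, ITGB1BP1, ITGB1BP2 and ITGB3BP had 0 differences of 1.5-fold or more under every alternative run. With no floor ITGB1BP2 entered as a further gene with equal values. With a floor at the 75th percentile, 5.43 log2, ITGB3BP was the 1 gene left, so that 1 gene was equal in each comparison, 0 were higher with CFX than in the control and 0 were lower for Mt-CFX over CFX. Lowess re-centring moved no gene of the 4 by more than 3.78e-05 log2. By those small shifts it gave 2 lower and 0 equal with CFX over control, and 1 higher, 2 lower and 0 equal for Mt-CFX over CFX. For the lists, a floor at the 75th percentile gave lower medians. Over control, Mt-CFX medians became −0.19 for the collagen biosynthesis list, −0.16 for receptors, −0.34 for basement membrane components and −0.0769 for ligands. The CFX median of basement membrane components became −0.0771. For Mt-CFX over CFX the medians became −0.0925, −0.10 and −0.34 for the collagen biosynthesis, receptor and basement membrane lists. With no floor, the median of receptors with Mt-CFX and that of ligands with CFX became 0.00. These floors test fewer or more genes by construction. The other counts at a fold size stayed within 1.5 times of those given, and medians within 0.05 log2. No paired analysis was possible because each group was 1 array. Equal values and the single array per group limit what small differences can show.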

Other observations

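Outside the protein-coding genes, 4 long non-coding RNA genes carry the symbols of collagen or integrin genes, as antisense transcripts of those loci. The background level was reached by 3 of them. This level, 3.89 log2, is the median of all probe sets, and the share of other non-coding genes that reached it was not computed. The count thus does not show that these RNAs were expressed. COL18A1-AS1 stood at 4.24 log2 and COL18A1-AS2 at 4.02 log2 on each of the 3 arrays. ITGB2-AS1 was at 4.37 log2 with Mt-CFX, 4.37 with CFX and 4.43 in the control, so both compounds had a log2 difference of −0.06 from the control. COL4A2-AS1 was below background on every array, at 3.21 log2 with Mt-CFX, 3.35 with CFX and 3.21 in the control. An antisense level says nothing of the level of the gene on the other strand, and the corresponding collagen and integrin genes were not analysed here.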
